A study of Mus musculus with 2 samples.

Results

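The Mir130 and Mir301 family of the mouse has 4 miRNA genes in the count tables used here, Mir130a, Mir130b, Mir301 (called Mir301a in some gene lists) and Mir301b. They were found by matching the Ensembl identifiers of the tables to GENCODE M21 symbols, and make up 4 of the 1973 miRNA genes counted. All 4 had at least 10 sense counts in both replicates, the minimum for calling a gene detected, which 340 of the 1973 genes reached. The study sequenced small RNA from whole limbs of healthy embryos of strain B6NCrl at 15.5 days, with male and female embryos pooled. Its single group held 2 biological replicates, a pool of 62 embryos (replicate 2) and a pool of 78 embryos (replicate 1). The labels name no allele, agent or treatment, and there is no other tissue or stage to compare with. The account is therefore one of levels, and of the 2 pools against each other. A whole limb mixes many cell types, and in such a bulk sample a change in the number of cells of a type cannot be told apart from a change in the RNA per cell.

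A microRNA is cut from a hairpin precursor, and bases 2 to 8 of the mature RNA, the seed, pair with complementary sites in messenger RNAs and lower their output. The genes of this family make mature RNAs from the 3p arm of the hairpin with the same seed, so they are expected to recognise an overlapping set of messenger RNAs. In human endothelial cells miR-130a lowers the homeobox proteins GAX (MEOX2) and HOXA5 and favours vessel growth. In human preadipocytes miR-130 represses PPARG, the master regulator of fat cell formation. These functions are background and were not measured here.

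The mature 3p RNAs are printed to show what the genes share, with the seed in capitals, 5′ to 3′, from RefSeq on GRCm38.p6, the same assembly as the mm10 of the count tables.
miR-130a-3p: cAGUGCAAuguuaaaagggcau
miR-130b-3p: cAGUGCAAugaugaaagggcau
miR-301a-3p: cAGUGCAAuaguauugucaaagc
The table had 3p entries for 3 of the 4 genes and none for miR-301b-3p. The 2 miR-130 sequences had 90.9% identity over 22 bases and differed by U11A and A13G, counted from 1 at the 5′ end with the base of miR-130a-3p first. The first base at which miR-301a-3p differed from either miR-130 sequence was base 10. Over the 22 bases compared, its identity was 54.5% to miR-130a-3p and 50.0% to miR-130b-3p. The family is thus a pair of near-identical miR-130 RNAs and a miR-301 branch that shares the 5′ end with them.

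The hairpins are printed because reads were counted per hairpin gene, on either arm, with the AGUGCAA of the seed in capitals.
Mir130a: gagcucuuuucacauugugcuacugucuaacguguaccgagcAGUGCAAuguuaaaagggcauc
Mir130b: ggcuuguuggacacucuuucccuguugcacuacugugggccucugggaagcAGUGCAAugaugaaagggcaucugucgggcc
Mir301: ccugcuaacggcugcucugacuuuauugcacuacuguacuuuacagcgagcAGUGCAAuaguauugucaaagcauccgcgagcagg
Mir301b: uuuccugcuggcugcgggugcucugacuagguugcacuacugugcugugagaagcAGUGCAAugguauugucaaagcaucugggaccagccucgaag
The hairpins were 64, 82, 86 and 97 bases long in the order printed. Placed without gaps on the Mir301b hairpin, miR-301a-3p had 1 mismatch, A10G, with the base of miR-301a-3p first. The longest run a family hairpin shared with any of the other RefSeq miRNA hairpins was 17 bases, between Mir130a and Mir6389. None of the 4 shared a run of 20 bases with another hairpin. An exact copy of each listed mature RNA lay in 1 annotated mouse gene, its own. Reads that aligned at several places were counted for no gene, and were 29.7% of all reads in replicate 2 and 29.4% in replicate 1. How many of them came from this family was not tested.

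The 4 genes lie at 3 places on the mm10 assembly. Mir130a (ENSMUSG00000065484.1) spans 84741115 to 84741178 of chromosome 2 (minus strand), where the annotation shows no host gene. The nearest gene upstream on its strand, Gm19426, ends 990 bases before it. Mir301 (ENSMUSG00000065589.1) spans 87113004 to 87113089 of chromosome 11 (plus strand), in intron 1 of Ska2. The Ska2 protein belongs to a complex that holds chromosomes to the spindle during cell division. Mir301b (ENSMUSG00000076288.1, 17124400 to 17124496) and Mir130b (ENSMUSG00000065572.1, 17124061 to 17124142) follow each other on the minus strand of chromosome 16, with 257 bases between them. Both lie in intron 1 of 2610318N02Rik, starting 671 and 1025 bases from the annotated start of that gene. None of the hairpins overlapped an exon of its host gene.

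**Figure D1:**
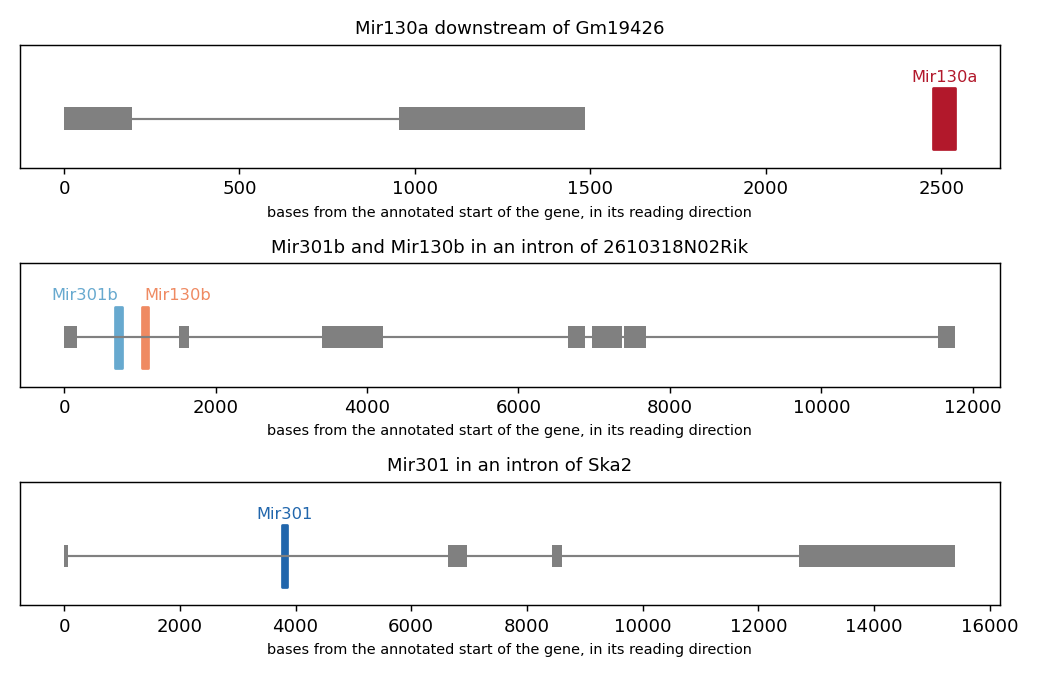
Maps of the 3 loci, drawn to scale in bases from the annotated start of the named gene, in its reading direction. Grey boxes are exons, grey lines the extent of the gene and coloured boxes the miRNA hairpins. Mir301b and Mir130b lie 671 and 1025 bases into 2610318N02Rik, Mir301 lies 3770 bases into Ska2, and Mir130a lies 990 bases beyond the end of Gm19426.

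The promoters of both host genes are shown because they carry repeated CCAAT boxes, the letters bound by the factor NF-Y, in capitals. Each window covers 300 bases around the RefSeq start of the gene, and CCAAT and its complement ATTGG were searched on both strands.
Ska2, plus strand, chr11:87109011-87109310: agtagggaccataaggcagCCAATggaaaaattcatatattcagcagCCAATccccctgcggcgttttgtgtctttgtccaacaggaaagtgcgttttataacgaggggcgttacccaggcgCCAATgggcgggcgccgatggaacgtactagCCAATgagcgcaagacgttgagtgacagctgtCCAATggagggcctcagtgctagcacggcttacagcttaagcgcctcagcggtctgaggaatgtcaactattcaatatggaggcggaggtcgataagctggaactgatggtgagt
2610318N02Rik, minus strand, chr16:17125153-17125452: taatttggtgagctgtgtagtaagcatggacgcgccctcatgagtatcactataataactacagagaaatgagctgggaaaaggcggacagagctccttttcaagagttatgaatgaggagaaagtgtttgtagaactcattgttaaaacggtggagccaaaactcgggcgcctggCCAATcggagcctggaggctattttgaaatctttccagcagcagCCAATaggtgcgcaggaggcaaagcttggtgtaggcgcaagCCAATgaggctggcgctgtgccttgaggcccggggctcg
Ska2 had 5 CCAAT boxes and 2610318N02Rik had 3. Of the 32851 promoter windows in the table, 37.4% held at least 1 match, 3.37% at least 3 and 0.271% at least 5. The search was added after values were seen, so these shares are no test of how unusual the promoters are. The matches describe the letters in these windows, and neither transcription of the host genes nor binding was measured here.

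Mir130a made up most of the family, and the other members followed in the order Mir130b, Mir301 and Mir301b in both replicates. Levels are sense counts scaled to a library of 1000000 sense counts over all miRNA genes (CPM). The totals behind them were 5151214 sense counts in replicate 2 and 4263630 in replicate 1. The counts do not separate the arms, and a mature RNA is read as 1 fragment, so counts were not divided by length. Whether the 4 sequences were captured equally well was not tested. The family share of the library was 2.45% in replicate 2 (2.44 to 2.47 by the Wilson 95% interval) and, by the same measure, 2.03% in replicate 1 (2.01 to 2.04). Its summed level was 22391 ± 3014 CPM (SD, n = 2). Intervals here cover counting error only.

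Mir130a had 105140 sense counts in replicate 2 and 71683 in replicate 1, which is 20411 and 16813 CPM. Its mean of 18612 ± 2544 CPM (SD, n = 2) put it at place 14 of all miRNA genes, and it held the same place in each replicate. Of the family counts it took 83.2% in replicate 2 (83.0 to 83.4, Wilson 95% interval), against 83.0% in replicate 1 (82.7 to 83.2). The share of Mir130a in the family thus differed little between the pools while its level differed.

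Mir130b had 14842 counts in replicate 2 and 10340 in replicate 1, or 2881 and 2425 CPM. Its mean of 2653 ± 323 CPM (SD, n = 2) stood at place 62, and it took 11.7% of the family counts in replicate 2 and 11.97% in replicate 1. Mir301 had 6065 counts in replicate 2 and 4130 in replicate 1, or 1177 and 969 CPM. With 1073 ± 148 CPM (SD, n = 2) it stood at place 96 and took 4.80% and 4.78% of the family counts of replicates 2 and 1. Both of these genes were higher in replicate 2, as Mir130a was.

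Mir301b was the rare member, with 274 counts in replicate 2 and 227 in replicate 1. Both replicates had a level of 53.2 CPM, for a mean of 53.2 ± 0.0351 CPM (SD, n = 2), at place 220. Of the family counts it took 0.217% in replicate 2 (0.193 to 0.244, Wilson 95% interval), against 0.263% in replicate 1 (0.231 to 0.299). Even this member was far above the limit that a count of 0 allows, which is 3 counts, equal to 0.582 CPM for replicate 2 and 0.704 CPM for replicate 1. Antisense reads were almost missing from all 4 loci, with 1 count in replicate 2, at Mir130a, and 0 in replicate 1.

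**Figure D2:**
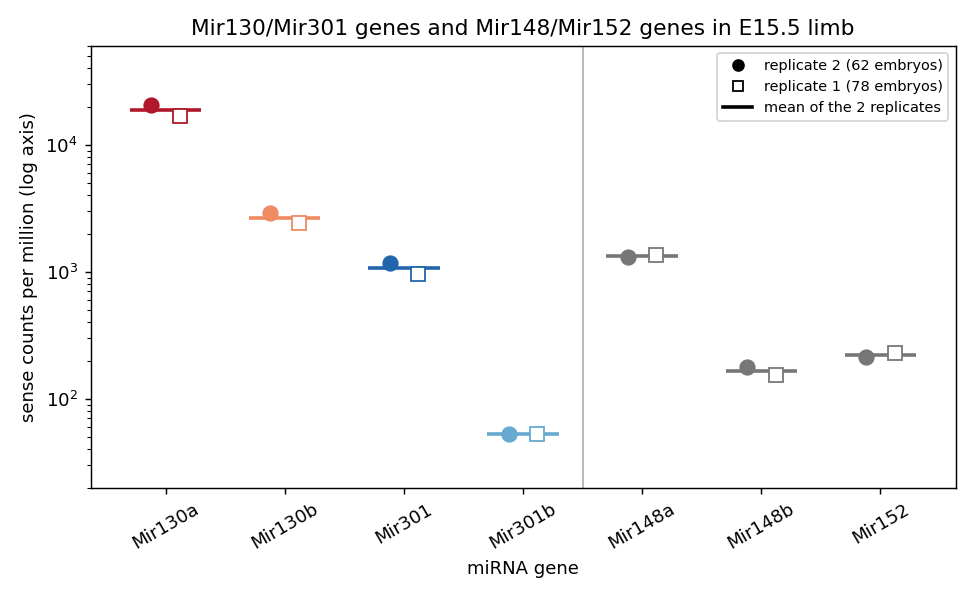
Levels in CPM of sense counts on a log axis for the 4 family genes (left of the grey line) and for Mir148a, Mir148b and Mir152 (right), with a filled circle for replicate 2, an open square for replicate 1 and a bar for the mean of the 2. The family genes are spread from 53.2 CPM for Mir301b to 18612 CPM for Mir130a, and for Mir130a, Mir130b and Mir301 the circle lies above the square.

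The steps between members were much larger than the spread between replicates. Mir130a was 7.08-fold above Mir130b in replicate 2 and 6.93-fold in replicate 1. Mir130b was 2.45-fold above Mir301 in replicate 2 and 2.50-fold in replicate 1. Mir301 was 22.1-fold above Mir301b in replicate 2 and 18.2-fold in replicate 1. The order was the same in both pools. An exact sign-flip permutation test over 2 pools cannot give a p below 0.5, so none was run for these steps.

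Mir130b and Mir301b come from the same intron, yet Mir130b had 54.2 times the counts of Mir301b in replicate 2 and 45.6 times in replicate 1. For comparison, 60 pairs of miRNA genes were neighbours on 1 strand, among detected genes only, with at most 1 kb between them. The higher gene of such a pair exceeded the lower by a median of 6.76-fold in mean CPM. Mir130b over Mir301b was 49.9-fold on this measure, and 10 of the 60 pairs had a larger step. With gaps of up to 3 kb, 15 of 84 pairs had a larger step, and with up to 10 kb, 20 of 102 pairs. Pairs that share a gene or a cluster are not independent, so these counts describe the libraries only. Reads common to several gene copies are counted for none, and some lower genes, such as Mir19b-1 and Mirlet7c-1, have other copies. Their steps, 468-fold below Mir20a and 222-fold below Mir99a in mean CPM, may therefore be too large. Pairs whose lower gene had fewer than 10 counts in either replicate were left out, so other large steps may be missing.

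**Figure D3:**
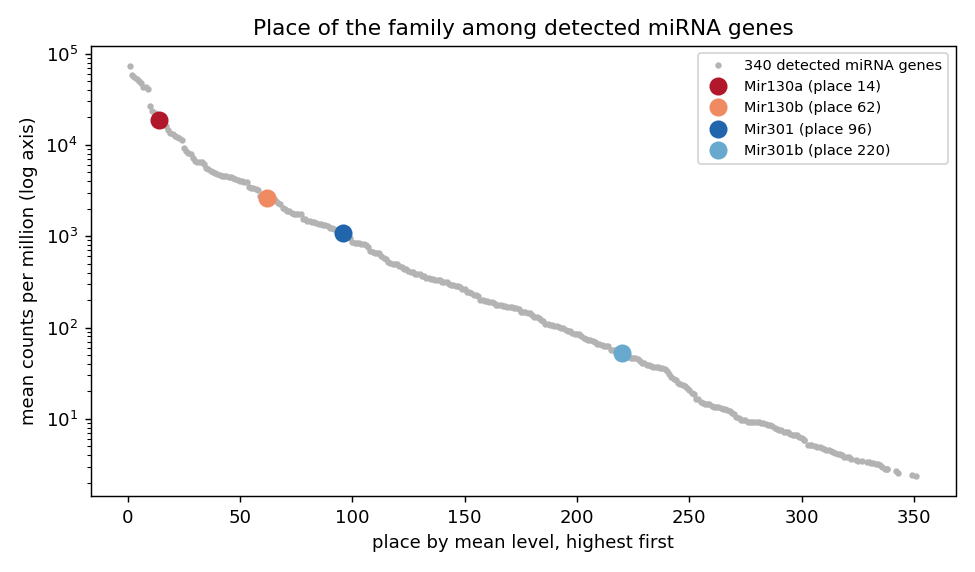
Mean CPM (log axis) of the 340 detected miRNA genes against their place by mean level, as grey points, with the 4 family genes in colour. Mir130a is at place 14, Mir130b at 62, Mir301 at 96 and Mir301b at 220, so the family reaches from the steep top of the curve to the lower part of it.

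Genes next to the members in level give a sense of scale. Directly above Mir130a were Mir214, from a transcript needed in skeletal growth, with 20274 ± 2148 CPM, and the endothelial Mir126a with 22336 ± 903 CPM. Directly below it were Mir99b with 16618 ± 2238 CPM and Mir30e with 16415 ± 906 CPM (SD, n = 2 for each). In both replicates these 4 genes kept their side of Mir130a, although the SDs of Mir130a, Mir214 and Mir99b were larger than the gaps between them. Mir130b lay among Mir15a (2745 ± 442 CPM), Mir18 of the miR-17-92 cluster (2718 ± 210 CPM), Mir483 from the imprinted gene Igf2 (2613 ± 336 CPM) and Mir532 (2581 ± 522 CPM). Of these, Mir15a alone kept its side in both replicates, and none differed from Mir130b beyond the SD.

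Mir301 lay below Mir1193 (1138 ± 71.3 CPM) and Mir96 (1092 ± 215 CPM) and above Mir107 (1044 ± 55.1 CPM) and Mir341 (1021 ± 189 CPM). All 4 changed sides of Mir301 between the replicates. Mir301b lay below Mir103-2 (56.3 ± 1.05 CPM) and Mir190a (54.4 ± 5.22 CPM) and above Mir106a (53.0 ± 6.30 CPM) and Mir331 (50.7 ± 4.36 CPM). Of these, Mir103-2 alone was on the same side in both replicates (SD, n = 2 for each gene). Mir106a is a paralog of Mir17, linked to cell proliferation.

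Other genes with the family seed added no counts. Of the 1738 mature miRNAs listed by RefSeq, 7 had AGUGCAA at bases 2 to 8. Beside the 3 printed above they were miR-130c, miR-721, miR-6341 and miR-6389. Mir130c, Mir6341 and Mir6389 had 0 sense counts in both replicates, which allows up to 3 counts each. Mir721 had no row matched by its identifier and was not analysed here. Mir130c and Mir6389 are printed to show how near they come to Mir130a.
miR-130c: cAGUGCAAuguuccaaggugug
miR-6389: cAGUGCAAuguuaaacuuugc

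The Mir148 and Mir152 genes carry the same letters shifted by 1 base, so that their seed is CAGUGCA, and together they were far below the Mir130 and Mir301 family.
miR-148a-3p: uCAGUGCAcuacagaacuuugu
miR-148b-3p: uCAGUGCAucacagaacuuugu
miR-152-3p: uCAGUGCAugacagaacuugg
Their sum was 1711 CPM in replicate 2 and 1740 CPM in replicate 1, against 24523 and 20260 CPM for the 4 family genes. Mir148a stood at 1318 and 1359 CPM, Mir148b at 179 and 153 CPM and Mir152 at 214 and 228 CPM in replicates 2 and 1. Mir148a thus lay above Mir301 and below Mir130b in both replicates, and all 3 lay above Mir301b.

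Mir130a, Mir130b and Mir301 were higher in the pool of 62 embryos (replicate 2) than in the pool of 78 (replicate 1) by much the same ratio, and Mir301b had equal levels in both. Mir130a was 1.21-fold higher (exact 95% counting interval 1.203 to 1.226), Mir130b 1.19-fold (1.16 to 1.22) and Mir301 1.22-fold (1.17 to 1.26). Mir301b had a ratio of 0.999 (0.835 to 1.197), an interval that overlaps those of Mir130b and Mir301 but not that of Mir130a. Direct tests of Mir301b against each other member, given below, did not pass. As log2 ratios of replicate 2 over replicate 1, Mir130a, Mir130b, Mir301 and Mir301b had 0.28, 0.25, 0.28 and -0.0013. An exact binomial test, on both sides and given the library totals, compared the libraries gene by gene, with a Benjamini-Hochberg threshold of 0.05 over the 340 detected genes. Mir130b passed with an adjusted p of 1.04e-40 and Mir301 with 1.36e-21 in the exact binomial test. Mir130a passed with a p too small for the software to represent, and Mir301b did not pass (adjusted p = 1 in the exact binomial test).

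So 3 of the 4 family genes were called, all higher in replicate 2, where 50.9% of the 340 genes were called in either direction (25.3% higher and 25.6% lower). The test asks only about counting noise, and at high counts nearly every gene passes. Among the 96 genes at or above the level of Mir301, 90.6% were called (51.0% higher and 39.6% lower). A call of these 3 genes is therefore no result particular to the family. The median log2 ratio was 0.26 over the 4 members and 0.02 over the 340 genes. For single genes, the SD of the log2 ratio over the 340 was 0.38, larger than the ratio of any member. That SD includes genes with few counts.

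Set against other genes, the ratios of Mir130a, Mir130b and Mir301 were on the high side, and that of Mir301b was not. Of the 340 detected genes, 51 had a larger ratio than Mir301, 52 than Mir130a, 65 than Mir130b and 178 than Mir301b. Among the 96 genes at or above the level of Mir301, 4 had a larger ratio than Mir301, the member with the largest ratio. Counted in either direction, more genes differed by as much. Of the 340 genes, 124 had a log2 ratio further from 0 than Mir301, 125 than Mir130a and 148 than Mir130b. Of the 96 genes, 33 were further from 0 than Mir130b. The SD of the log2 ratio over these 96 genes was 0.261, which the ratios of Mir130a (0.280) and Mir301 (0.282) exceeded and that of Mir130b (0.249) did not. With 1 pool on each side, a difference between pools and the ordinary spread between pools cannot be told apart.

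**Figure D4:**
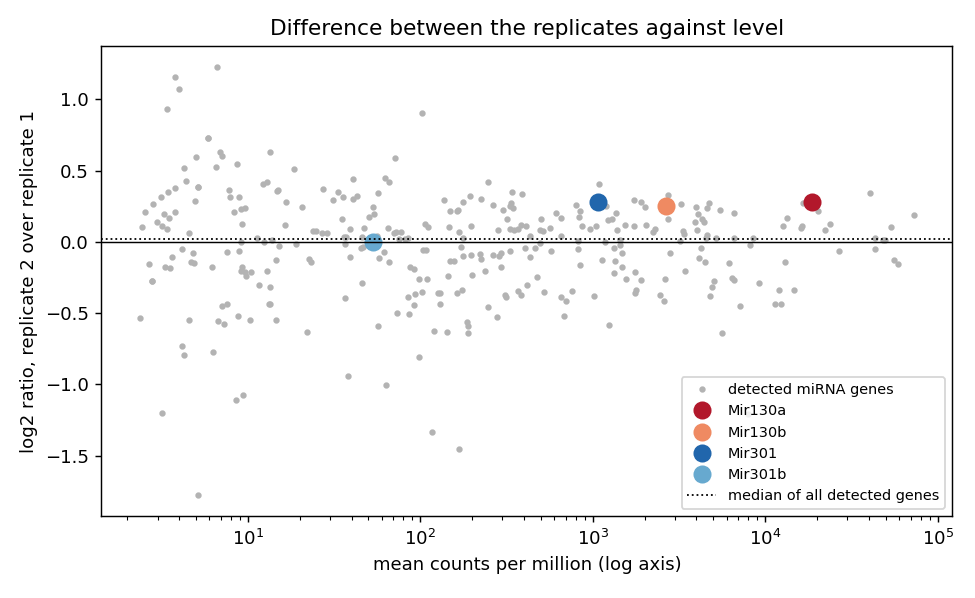
Log2 ratio of replicate 2 over replicate 1 against mean CPM (log axis) for the detected miRNA genes, in grey, and the 4 family genes, in colour. The dotted line is the median of all detected genes at 0.02. Mir130a, Mir130b and Mir301 lie between 0.25 and 0.28 and Mir301b lies at 0.

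The ratios of members to each other do not depend on how the libraries are scaled. Among Mir130a, Mir130b and Mir301 they held nearly still between the pools. The step from Mir130a to Mir301 changed by -0.0018 on the log2 scale (95% counting interval -0.06 to 0.06), replicate 2 minus replicate 1. The step from Mir130a to Mir130b changed by 0.03 (-0.0076 to 0.07), and that from Mir130b to Mir301 by -0.03 (-0.10 to 0.03). These 3 genes come from 3 chromosomes, and they are the 3 members that were higher in replicate 2. In steps that end at Mir301b the change was larger, 0.28 (0.03 to 0.54) from Mir130a, 0.28 (0.02 to 0.54) from Mir301 and 0.25 (-0.0064 to 0.51) from Mir130b. Of the 6 pairs compared, none passed an adjusted threshold of 0.05 in Fisher's exact test on both sides. The smallest p of this exact test was 0.0322 for Mir130a with Mir301b, which became 0.108 when adjusted over the 6 pairs. For Mir301b and its intron neighbour Mir130b, the change of the step between the pools had p = 0.0601 in Fisher's exact test, 0.120 when adjusted. The few counts of Mir301b make this interval wide.

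**Figure D5:**
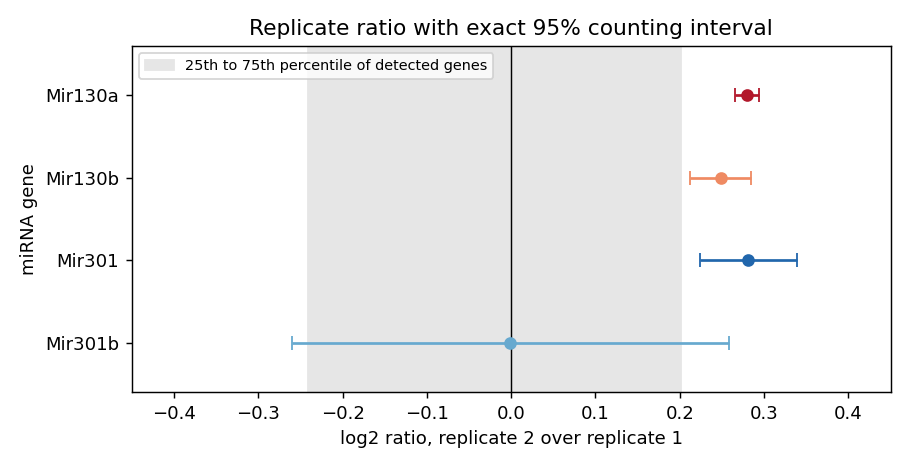
Log2 ratio of replicate 2 over replicate 1 for each family gene, with its exact 95% counting interval as a bar and the 25th to 75th percentile of the 340 detected genes as a grey band. The intervals of Mir130a, Mir130b and Mir301 overlap and lie to the right of the band, and the wide interval of Mir301b reaches from -0.26 to 0.26.

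Genes of the vessel wall list went both ways between the pools, and the called genes of the miR-17 clusters were all higher in replicate 2. The endothelial Mir126a, listed for the vessel wall, was higher in replicate 2 by a log2 ratio of 0.08 and passed the exact binomial test. The smooth muscle genes Mir143 and Mir145a of the same list had log2 ratios of -0.29 and -0.36 and passed it as lower. Mir145b had 1 count in each replicate. The list of 4 vessel wall genes thus held 1 called higher and 2 called lower of 3 detected genes, with a median of -0.29, where 50.9% of all detected genes and 90.6% of the 96 deeper genes were called. In the list of 15 genes of the miR-17 clusters, linked to proliferation, 8 of 14 detected genes were called higher and 0 lower. Beside this, 25.3% of all detected genes and 51.0% of the 96 deeper genes were called higher. The listed genes come from the clusters Mir17-92, Mir106b-25 and Mir106a-363, and genes of 1 cluster are not independent. The median log2 ratio of the 14 detected genes was 0.24, beside 0.26 for the Mir130 and Mir301 genes and 0.02 for all 340 genes. That median includes genes with few counts, such as Mir18b at 0.63 with 43 counts in replicate 2 and 23 in replicate 1. Listed genes at or above the level of Mir301 had log2 ratios from 0.09 (Mir92-1) to 0.24 (Mir106b).

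Marker genes listed for limb tissue were found in both libraries, with no other tissue in the study to compare. Of 10 marker genes listed for cartilage, skeletal muscle, epidermis, the Hox clusters and endothelium, 10 were detected, with mean levels of 63.1 to 72531 CPM. The 10 matched markers of liver, nerve, heart, red blood cells and islets reached at most 615 CPM (Mir375), and Mir9-1 had no matched row. The lists overlapped in level. Mir133b of skeletal muscle, at 63.1 CPM, lay below Mir375, Mir451a (332 CPM), Mir144 (85.0 CPM) and Mir122 (71.8 CPM). Every other limb marker lay above Mir375. The 4 markers at 0 in both replicates were Mir124a-1, Mir124a-2, Mir124a-3 and Mir9-2. The mature RNAs of these come from several gene copies whose common reads are counted for none, so their zeros say nothing of nerve RNA. The summed level of all 10 matched markers of other tissues was 1160 CPM in replicate 2 and 1063 CPM in replicate 1, a sum that includes these 4 genes. The summed level of the limb markers was 224610 and 211297 CPM. Of the 10 limb markers, 5 were called higher in replicate 2 and 4 lower. Beside this, 25.3% of the 340 detected genes were called higher and 25.6% lower. Among the 96 genes at or above the level of Mir301 these shares were 51.0% and 39.6%. Such a count of calls is therefore no result particular to the markers. Among the higher markers were Mir196b with a log2 ratio of 0.35 and Mir203 with 0.19. The lower markers were Mir206 with -1.21, Mir133b with -1.01, Mir455 with -0.21 and Mir140 with -0.05. The part of tissue make-up in the family ratios was not tested.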

How the data were processed

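Small RNA below 30 nt from total RNA of limbs was sequenced in 2 replicates, per the labels. The deposited tables hold raw counts of reads for each miRNA gene, made by the authors on mm10 with annotation M4, per the deposited README. The aligner, counter and their versions are not given in the sources used here. The 3 count columns have no header. The first is the sum of the others for every gene, and they were read as both strands, sense and antisense. Sense counts were used.

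Symbols came from GENCODE M21 (1894 of 1973 identifiers matched). CPM used the sense total of each library. Tests used scipy 1.17.1, and TMM factors edgeR 4.0.16. The binomial test was checked on simulated counts. With 1 group no quasi-likelihood test was possible. The p-values measure the spread between 2 libraries against counting noise. Named genes are the members, their 2 neighbours in level on each side, genes with the same or the shifted seed, and fixed marker lists. The pair tests within the family, the neighbouring pairs and the CCAAT search were added after values were seen. The members and lists were chosen with earlier results of these data known.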

Additional observations from a re-analysis of the deposited data

How the results depend on the processing

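Scaling by TMM, by median-of-ratios size factors or by all reads moved every log2 ratio by 0.01, 0.0098 and 0.03, and Mir130a, Mir130b and Mir301 were called higher in replicate 2 under every scaling, count minimum and strand choice tried. Mir301b was never called, and its log2 ratio of -0.0013 changed sign to 0.0099 with TMM, 0.0084 with size factors, 0.031 with all reads as total and 0.0061 with both strands counted, all of them near 0. The number of genes called was 173 of 340 tested, and 176 to 181 of 340 under the other scalings. It was 171 of 694 with no count minimum, 167 of 247 with at least 100 counts and 184 of 349 with both strands counted. The number called thus changed little, while the share of tested genes called depended strongly on the count minimum. Scaled to 1000000 of all reads, instead of sense counts, the levels were 8746 for Mir130a, 1247 for Mir130b, 504 for Mir301, 24.98 for Mir301b and 10521 for the family, since sense counts were 47.5% of the reads of replicate 2 and 46.4% in replicate 1. Counted on both strands, Mir301b had 51.4 CPM. Counts divided by hairpin length, a choice made after seeing the data, gave family shares of 86.5% for Mir130a, 9.63% for Mir130b, 3.71% for Mir301 and 0.165% for Mir301b, in the same order. Leaving out 1 replicate gave levels of 16813 to 20411 CPM for Mir130a, 2425 to 2881 for Mir130b, 969 to 1177 for Mir301, 53.2 for Mir301b, and 20260 to 24523 for the family. With 2 libraries no ratio could be had without either of them. No paired analysis was possible because there is 1 group. The depth of Mir301b limits what its ratio can show.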
